A study of Mus musculus with 16 samples.

Results

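The effect of a liver-specific knockout of oestrogen receptor alpha on liver transcripts was averaged over sexually immature and mature mice. All 16 libraries of the series entered this comparison, 8 from LERKO mice (liver-specific knockout of Esr1, labelled as carrying Cre) and 8 from controls (labelled without Cre, called flox in the design text). Each genotype held 4 mature and 4 immature mice, 1 liver library per mouse. The groups are written Mat.Con, Mat.LERKO, Imm.Con and Imm.LERKO, with a number for each library that only names it. The sources used here do not give ages, sex, strain, the promoter or vector that supplied Cre, the deleted exon, or whether the stage label refers to the time of knockout or of sampling. The series title names mitochondrial function, steatosis and gene expression as the outcomes studied.

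Oestrogen receptor alpha is a nuclear receptor that binds oestradiol and then regulates genes through response elements in DNA, often a palindrome of inverted half-sites. In liver it is the main oestrogen receptor and is known for its part in lipid and glucose metabolism, in secreted plasma proteins and in differences between the sexes. Averaging the knockout effect over both stages asks which transcripts differed with genotype on average, with more livers behind each value than a single stage gives. The pooled test does not require the same direction under both stage labels. Effects of opposite sign in the stages cancel in such an average, in part or in full, and an effect in a single stage can carry it. The effects within the stages are therefore given for many of the genes and lists, but not for all. Where a pooled value stands alone, the stages may still differ in sign or size.

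Libraries held between 18123974 and 23213905 counts, and 13379 genes with sufficient counts were tested. Levels are CPM, counts brought to the same library total with TMM factors. Fold changes are log2 values of LERKO against control from edgeR's quasi-likelihood test, with a term for stage and a term for genotype, and adjusted p-values are Benjamini-Hochberg values over all tested genes with a threshold of 0.05. Where a mean ± SD over 8 livers is given, the SD includes any difference between the stages. In whole liver, fewer cells of a type and less RNA per cell cannot be told apart.

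Several libraries stood apart from the rest of their groups. Summed skeletal muscle markers reached 1110 CPM in Mat.Con 1, 489 in Mat.Con 2 and 101 in Mat.Con 4, and 239 in Imm.LERKO 4, against 31.9 CPM or less in the other 12 libraries. The library Mat.LERKO 4 had the lowest scaling factor (0.852, against up to 1.07), 19000 CPM of the acute phase gene Saa1, and the lowest summed stellate (211 CPM) and endothelial (212 CPM) markers. Imm.LERKO 2 held 0.48 CPM of Xist, the RNA that coats the inactive X chromosome, against 469 to 735 CPM in the 15 other libraries, while Ddx3y, Uty, Kdm5d and Eif2s3y of the Y chromosome were listed at 0 in all 16. Hepatocyte markers summed to 138000 to 185000 CPM in controls and 144000 to 192000 in LERKO livers, and 0 of the 13 hepatocyte markers in the table were at 0 throughout.

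**Figure D1:**
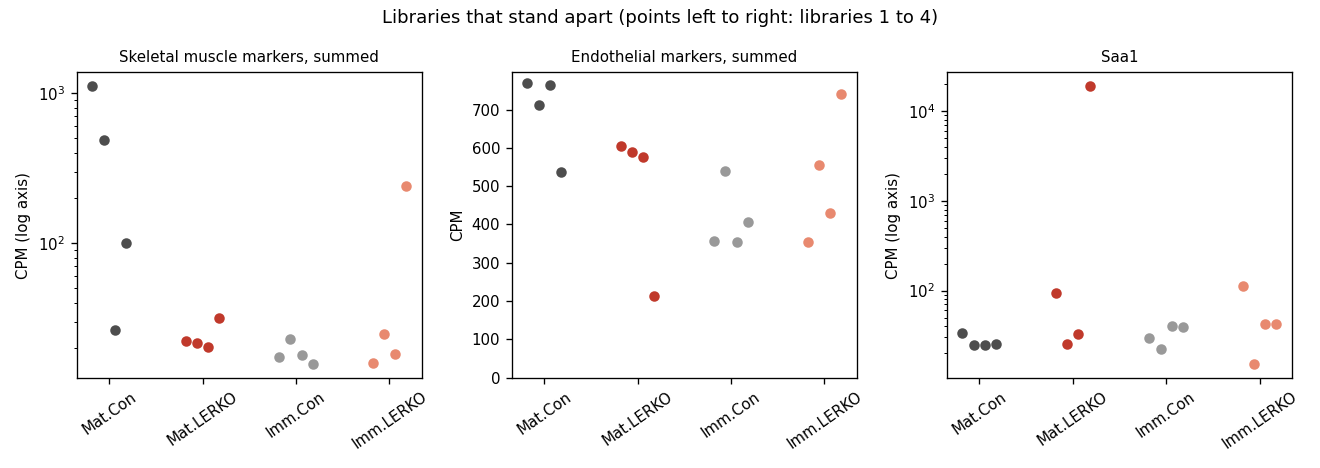
Summed CPM of skeletal muscle markers (log axis), summed CPM of endothelial markers (linear axis from 0) and CPM of Saa1 (log axis) in each library of the 4 groups; points run from library 1 to library 4. Mat.Con 1, Mat.Con 2 and Imm.LERKO 4 are high for muscle, and Mat.LERKO 4 is low for endothelial markers (212 CPM) and high for Saa1 (19000 CPM).

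Esr1, the deleted gene, was lower in LERKO livers of both stages. The 8 controls ran from 55.3 to 110 CPM with a median of 76, and the 8 LERKO livers from 10.7 to 19.1 CPM with a median of 14.8. Every LERKO library lay below every control library. The means were 77.9 ± 16.9 and 14.6 ± 2.69 CPM (SD, n = 8 each), a log2 fold change of -2.42 (SE 0.13, 95% interval -2.69 to -2.14, adjusted p = 1.76e-08, edgeR). This leaves 18.7% of the control level (95% interval 15.5 to 22.6%). The effect was -2.33 (SE 0.19) in mature and -2.5 (SE 0.19) in immature mice, and their difference of 0.17 (SE 0.25) was not called (adjusted p = 0.928, edgeR). Esr1 (ENSMUSG00000019768) lies on the forward strand at chr10:4611593-5005614 of GRCm38, and its counts can include reads of exons that the deletion leaves in place. Which cells of the LERKO liver the remaining transcripts came from was not tested.

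Esr1 was 1 gene of 13379 that passed, 0.00747% of those tested, and it passed in the lower direction. An unadjusted p below 0.05 was reached by 482 genes (3.6%), 260 of them higher and 222 lower in LERKO, where a share of 0.05 would have such a p on average if no gene differed. The fold changes were centred on 0, with a median of 0.002 and 50.7% of genes positive. In 4 genes (0.0299%) the genotypes did not overlap in either stage and moved the same way. These were Esr1 (lower), the sulfotransferase gene Sult3a2 (higher), and the unnamed transcripts Gm12744 (higher, log2 fold change 0.67, SE 0.16) and 4632428C04Rik (lower, -1.08, SE 0.36), the last pair named here after their values were seen. Among 13379 genes, a few can separate in this way by chance when each group holds 4 libraries. With all 8 controls set against all 8 LERKO livers regardless of stage, Esr1 was the 1 tested gene without overlap.

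**Figure D2:**
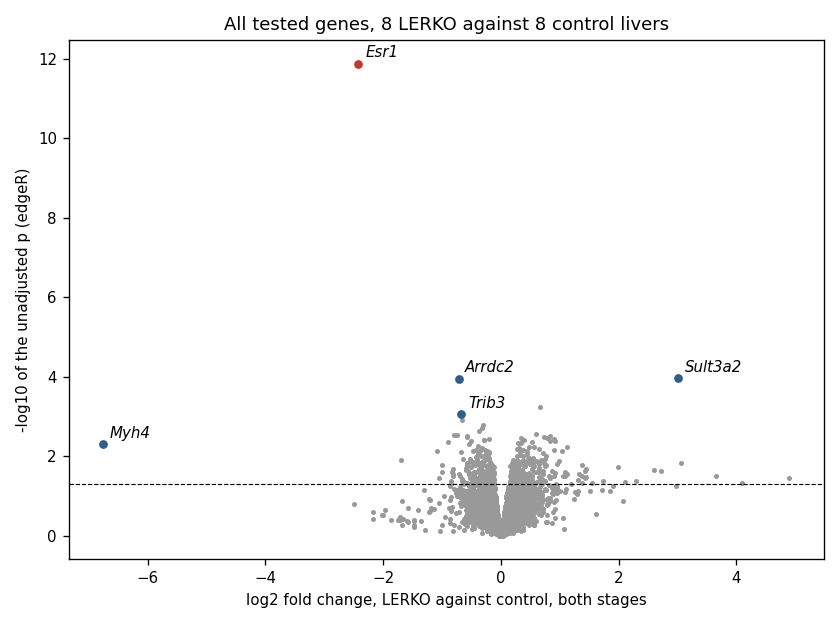
Log2 fold change of LERKO against control over both stages (x axis) and -log10 of the unadjusted p of edgeR's quasi-likelihood test (y axis) for the 13379 tested genes; the dashed line marks an unadjusted value of 0.05, red marks the gene that passed after adjustment and blue marks named genes that did not. Esr1 stands alone at the top with a log2 fold change of -2.42, and the muscle gene Myh4 lies far to the left at -6.76 without passing.

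The precision behind this count was set by 8 livers a side. The median standard error over genes was 0.12 for both stages together, against 0.17 within either stage, and the common biological coefficient of variation was 22.2%. For 93.5% of tested genes the 95% interval of the pooled effect lay within a 2-fold change in either direction, compared with 81.2% in mature and 83.4% in immature mice. For 76% it lay within 1.5-fold. Genes that miss the threshold are therefore bounded in most cases, not shown to be equal.

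Sult3a2 and Arrdc2 had the smallest adjusted p after Esr1, 0.489 each (edgeR), and did not pass. Their promoters are shown because these are the 2 genes that a second count model, DESeq2, called beside Esr1. The RefSeq windows are the 250 bases before the transcription start, both on the reverse strand of GRCm38.p6 and written 5′ to 3′ along the gene, all in lower case because neither holds the oestrogen response element (GGTCA and TGACC with 3 bases between) or its half-site.
Sult3a2, chr10:33782116-33782365: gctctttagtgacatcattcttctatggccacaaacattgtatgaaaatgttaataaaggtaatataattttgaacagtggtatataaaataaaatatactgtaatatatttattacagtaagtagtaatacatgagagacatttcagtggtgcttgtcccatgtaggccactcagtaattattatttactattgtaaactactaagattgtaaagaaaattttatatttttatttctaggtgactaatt
Arrdc2, chr8:70839721-70839970: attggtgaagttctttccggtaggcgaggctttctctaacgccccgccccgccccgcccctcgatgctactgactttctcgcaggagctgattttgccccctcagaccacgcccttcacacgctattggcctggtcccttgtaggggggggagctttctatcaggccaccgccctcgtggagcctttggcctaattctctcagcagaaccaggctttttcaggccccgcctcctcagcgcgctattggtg
The RefSeq start of Sult3a2 lies inside the GENCODE gene, which runs from 33766424 to 33786704, so annotations differ on where transcription begins. Over all 32851 RefSeq windows of that length, 21 (0.0639%) hold the full element and 11577 (35.2%) hold GGTCA or TGACC, counting either strand. Of the 20 genes named from the pooled ranking below, 16 had a window in the RefSeq table, 18 windows in all. The full element was in 0 of these 18 and a half-site in 6. A match or its lack describes these letters alone, not binding.

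Sult3a2 encodes a cytosolic sulfotransferase of the family that conjugates sulfate to small molecules, and its transcripts were rare. In mature mice the controls had 0.254, 0.558, 0.268 and 0.21 CPM and the LERKO livers 1.32, 1.01, 0.659 and 8.94 CPM. In immature mice the values were 0.0518, 0.103, 0.151 and 0.0567 CPM in controls and 0.46, 0.533, 1.23 and 0.245 CPM in LERKO. The genotypes did not overlap within either stage, though the lower immature LERKO livers fell below the highest mature control. The underlying counts were small, at 12 or fewer per control library. The log2 fold change was 3.01 (SE 0.6, 95% interval 1.75 to 4.28), and 2.03 without Mat.LERKO 4, the library with 8.94 CPM. DESeq2 gave an adjusted p of 0.000738. Its neighbour Sult3a1, of the same family, had a log2 fold change of 0.59 (SE 0.38). The 2 genes share 7.72% of the 50-base windows of Sult3a2's exons, so a part of its reads could be split between them.

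Arrdc2, a member of the alpha-arrestin family of adaptor proteins, had lower values in LERKO livers of both stages. Mature controls stood at 11.8, 15.8, 14.4 and 23.6 CPM and mature LERKO livers at 10.9, 9.36, 6.9 and 10.2 CPM. In immature controls the values were 14.9, 18.9, 20.1 and 24.8 CPM, and in immature LERKO livers 12, 13, 11 and 15.2 CPM. The mature groups did not overlap, and the immature groups overlapped by 1 library. The log2 fold change was -0.72 (SE 0.14, 95% interval -1.02 to -0.41), with -0.81 in mature and -0.62 in immature mice. DESeq2 gave an adjusted p of 0.0098.

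**Figure D3:**
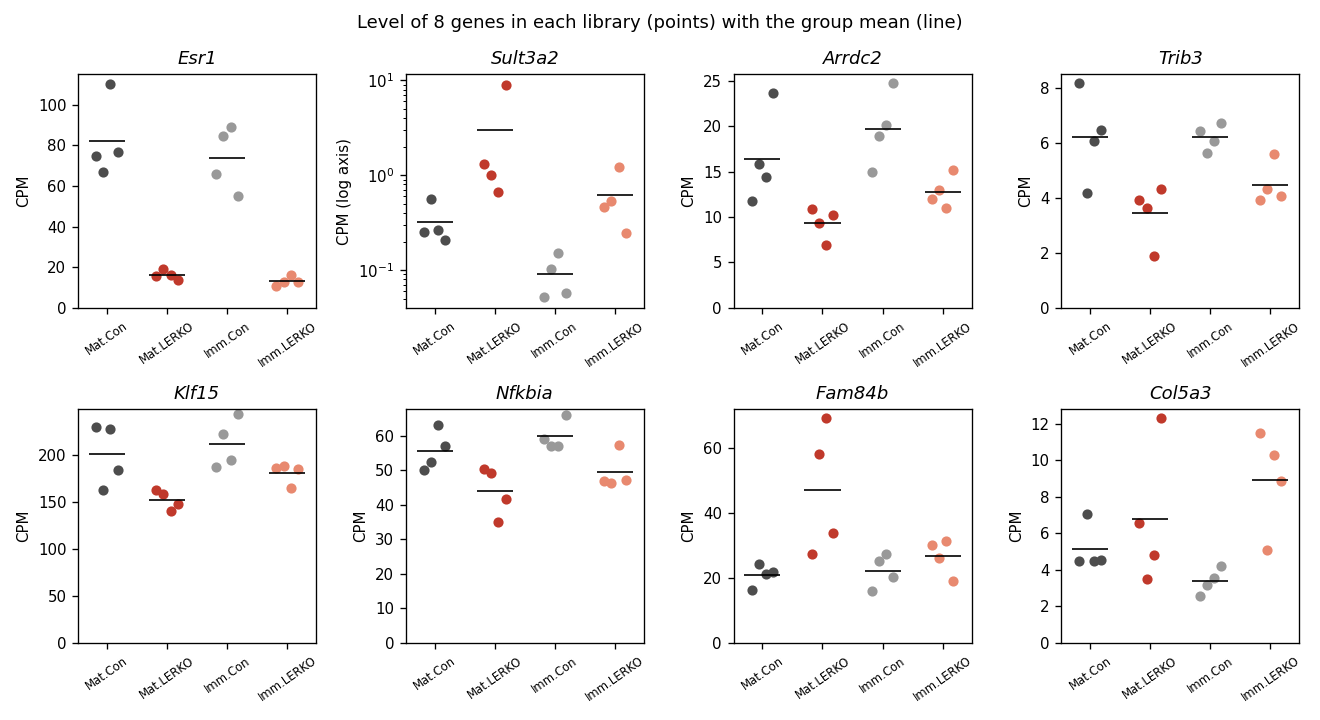
CPM (y axis, linear from 0 except for Sult3a2, which has a log axis) of Esr1 and 7 further genes named by their p-values in each library of the 4 groups; points are libraries 1 to 4 and the line is the group mean. Esr1 separates the genotypes in both stages, Arrdc2 overlaps by 1 library in immature mice, Fam84b is above controls in every mature LERKO liver and Col5a3 in every immature one.

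The other 8 genes at the lower end of the ranking had adjusted p-values of 0.999 (edgeR) and did not pass. Among them were regulators of stress and metabolic signalling. Trib3, a pseudokinase induced in nutrient and endoplasmic reticulum stress, stood at 8.17, 4.18, 6.07 and 6.48 CPM in mature controls and 3.91, 3.63, 1.88 and 4.32 in mature LERKO livers. Its immature values were 6.43, 5.63, 6.08 and 6.7 CPM in controls and 3.91, 4.32, 5.58 and 4.06 in LERKO. The immature groups were apart and the mature groups overlapped by 1 library, with a pooled log2 fold change of -0.67 (SE 0.16, 95% interval -1.01 to -0.32).

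Klf15, a zinc finger factor that promotes amino acid breakdown in fasting, had 230, 163, 228 and 184 CPM in mature controls and 163, 159, 140 and 148 in mature LERKO livers. Immature controls had 187, 223, 195 and 244 CPM and immature LERKO livers 186, 189, 165 and 185. The genotypes met at 163 CPM in mature mice and overlapped by 1 LERKO library in immature mice (-0.32, SE 0.09). Nfkbia, which encodes the inhibitor of NF-kappa-B, ran from 50.1 to 66.1 CPM in the 8 controls (mean 57.7 ± 5.2, SD) and from 35.1 to 57.4 CPM in the 8 LERKO livers (46.7 ± 6.5, SD). Its effect was small and alike in both stages (-0.33 mature, -0.28 immature), with an SE of 0.08 for the pooled value of -0.3. Ocln, the tight junction protein occludin, had a log2 fold change of -0.37 (SE 0.1).

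The remaining genes of the lower end had wider spreads. Arl4d, a small GTPase, averaged 55.2 ± 23 CPM in controls and 32.1 ± 9.86 in LERKO (SD, n = 8 each; -0.79, SE 0.23), and 5 of the 8 controls lay within the LERKO range of 24.2 to 55.3 CPM. Pde4d, a phosphodiesterase that degrades cyclic AMP, had a value of -0.57 (SE 0.16), and Rufy4, at 1.95 ± 0.516 and 1.17 ± 0.41 CPM (SD, n = 8 each), one of -0.74 (SE 0.21). Sptb, the erythrocyte beta-spectrin, stood at 4.81 ± 1.28 and 3.02 ± 0.699 CPM (SD, n = 8 each; -0.66, SE 0.17). Beside it, all 5 tested red blood cell markers had positive fold changes, with a median of 0.25, and their part in the Sptb value was not tested. Pde4d overlaps Rps3a3 and 2 microRNA genes on its own strand and Sptb overlaps Plekhg3 on the other, so their counts may include reads of these neighbours.

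Of the 10 genes at the higher end, the 9 beside Sult3a2 had adjusted p-values of 0.999 (edgeR). Ccnj, cyclin J, averaged 1.8 ± 0.236 CPM in controls and 2.71 ± 0.807 in LERKO (SD, n = 8 each), a log2 fold change of 0.6 (SE 0.17). Zmat3 and Pidd1 had values of 0.34 (SE 0.1) and 0.53 (SE 0.16). Zmat3 stood at 6.58 ± 0.552 and 8.32 ± 1.33 CPM and Pidd1 at 1.32 ± 0.328 and 1.89 ± 0.244 CPM (SD, n = 8 each). Rtp3 (0.29, SE 0.09), the sialyltransferase gene St3gal1 (0.34, SE 0.1) and the GTPase gene Gimap9 (0.47, SE 0.15) were also positive in both stages. Gimap9 had 0.73 in mature and 0.21 in immature mice, a difference that was not called (adjusted p = 0.774, edgeR). Of Rtp3's 50-base exon windows 36.4% are shared with other genes, mainly antisense partners, so its level is uncertain.

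In Fam84b, Onecut2 and Col5a3 the fold change was positive in both stages too, but mostly that of 1 stage. Fam84b stood at 16.3, 24.2, 21.2 and 21.7 CPM in mature controls and 27.4, 58.2, 69.2 and 33.6 in mature LERKO livers, with no overlap. In immature mice the controls held 15.8, 25.2, 27.2 and 20.1 CPM and the LERKO livers 30.1, 26.2, 31.4 and 19.1, with overlap. The log2 fold change was 1.17 in mature and 0.27 in immature mice (0.73 pooled, SE 0.21), and an antisense gene shares 40.5% of its exon windows. Onecut2, a transcription factor of hepatocyte and bile duct development, had 0.62 in mature and 0.16 in immature mice (0.39 pooled, SE 0.12).

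Col5a3, a chain of type V collagen, was the reverse of Fam84b in its stages. The mature controls were at 4.47, 7.02, 4.47 and 4.54 CPM and the mature LERKO livers at 6.55, 3.46, 4.82 and 12.3. The immature controls were at 2.54, 3.15, 3.52 and 4.2 CPM and the immature LERKO livers at 11.5, 5.06, 10.3 and 8.86. The immature groups did not overlap and the mature groups did (0.4 mature, 1.42 immature, 0.9 pooled, SE 0.27). The difference between stages had an adjusted p of 0.768 for Fam84b, 0.773 for Onecut2 and 0.774 for Col5a3 (edgeR), so none of the 3 was shown to differ between them.

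**Figure D4:**
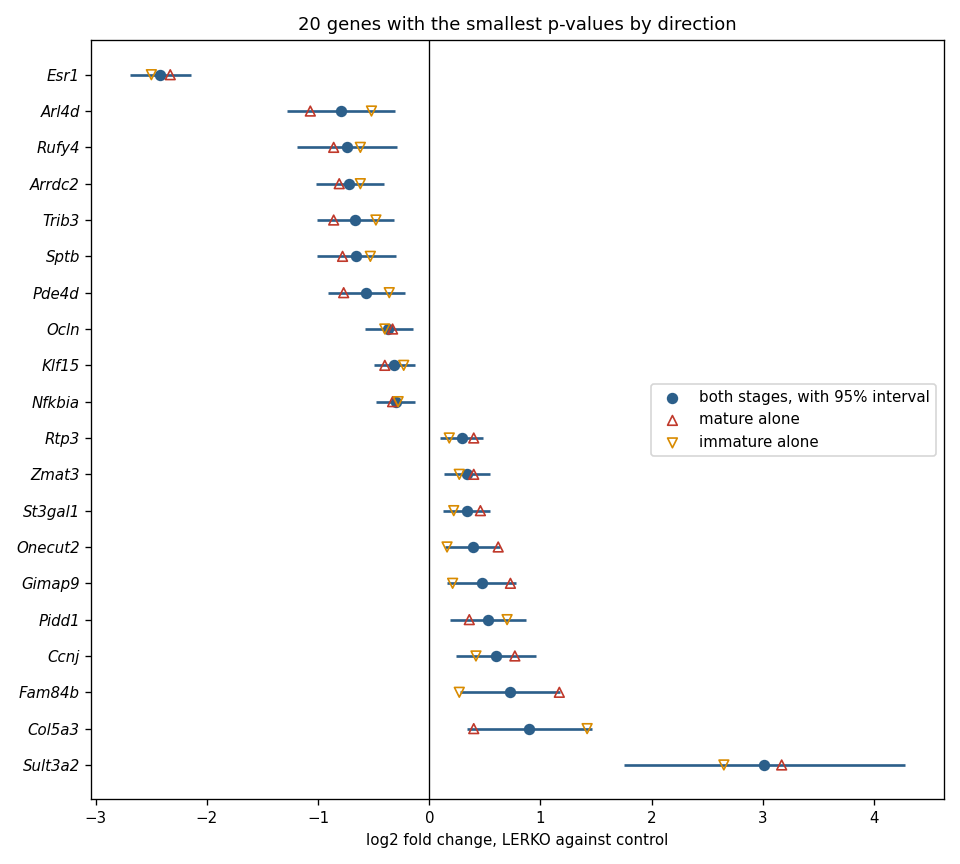
Log2 fold change of LERKO against control (x axis) for the 10 genes of smallest p in each direction (rows); filled circles with bars are the pooled effect and its 95% interval, open triangles the effect in mature (up) and immature (down) mice alone. Esr1 at -2.42 passed and the other 19 did not; the stages differ most within Fam84b (1.17 and 0.27) and Col5a3 (0.4 and 1.42).

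Across all genes the 2 stages had little in common. The comparisons share no library, and 45.3% of genes had the same sign in both. Across genes the rank correlation of the 2 sets of fold changes was -0.17 (Spearman) and the linear one -0.62 (Pearson). Both are a description over genes scaled in 1 fit. The linear one is sensitive to extreme values, such as those of the muscle gene Acta1 (-8.84 in mature, 10.87 in immature mice). The part of such genes in it was not tested. A test of the difference called 0 genes (smallest adjusted p = 0.566, edgeR; 850 genes, 6.35%, at an unadjusted p below 0.05), 0 with limma-voom and 26 with DESeq2, which included the muscle genes Acta1 and Ckm. Acta1, skeletal muscle actin, had 167 and 79.8 CPM in Mat.Con 1 and 2 and 46.2 in Imm.LERKO 4, the libraries with most muscle transcripts.

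Gene lists were described by their median and counts, read against the 1.94% of all tested genes that were higher and 1.66% that were lower at an unadjusted p below 0.05, and against a median of 0.002. Over all lists, Esr1 was the 1 member that passed over all genes.

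**Figure D5:**
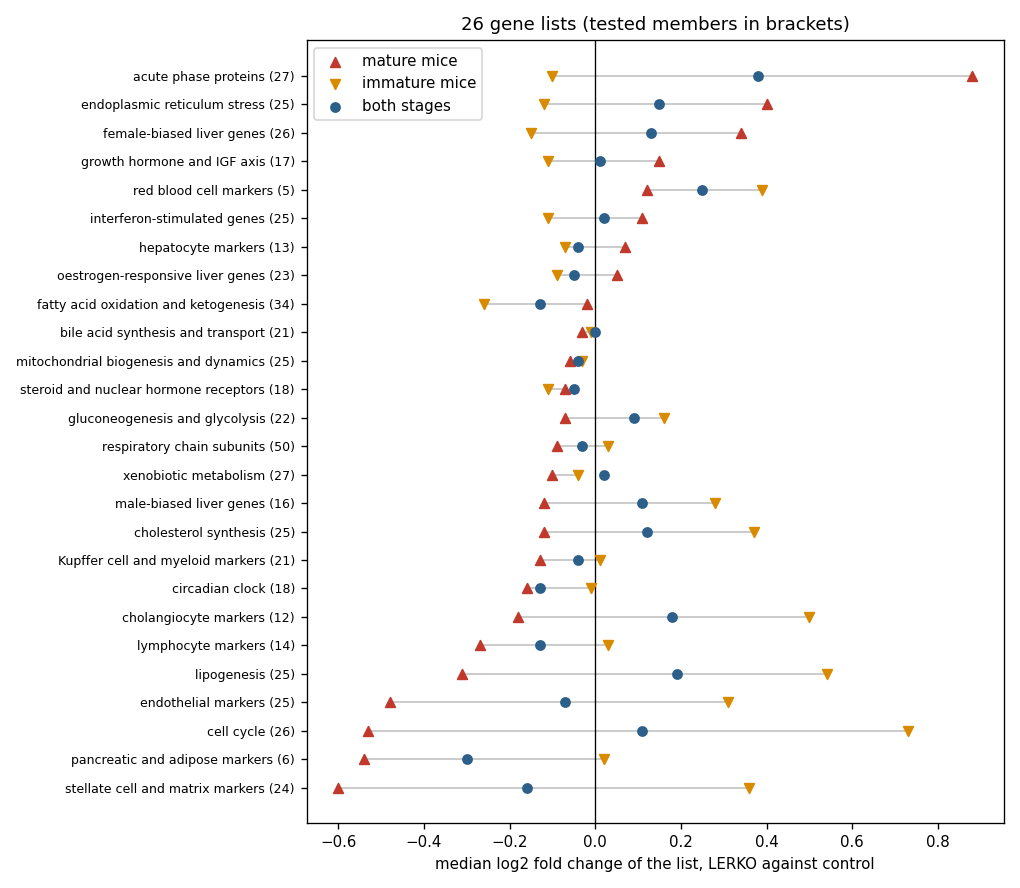
Median log2 fold change of LERKO against control (x axis) for 26 gene lists (rows, tested members in brackets) in both stages together (circles), in mature (upward triangles) and in immature mice (downward triangles). Acute phase genes lie at 0.88 in mature and -0.1 in immature mice, and cell cycle, stellate and endothelial genes lie below 0 in mature and above 0 in immature mice; skeletal muscle markers (-8.09 and 6.5) lie outside the axis and are left out.

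Nuclear receptors and known oestrogen-responsive genes had medians close to 0 in the pooled comparison. Of 18 tested steroid and nuclear hormone receptors, Esr1 included, 5 had positive and 13 negative fold changes, with a median of -0.05. Hnf4a, a regulator of hepatocyte identity, and Rxra, the shared dimer partner of many receptors, had values of -0.04 (SE 0.13) and -0.05 (SE 0.09). Within the stages Hnf4a had 0.22 in mature and -0.3 in immature mice. Oestrogen-responsive liver genes split into 11 positive and 12 negative with a median of -0.05 (0.05 mature, -0.09 immature). Of the 23 tested, 1 had an unadjusted p below 0.05. That gene, Abcg8, part of the transporter that exports sterols into bile, stood at 142 ± 14.3 CPM in controls and 113 ± 25.6 in LERKO (SD, n = 8 each; -0.33, SE 0.12, adjusted p = 0.999, edgeR). Serpina1a, an alpha-1-antitrypsin gene, had -0.05 (SE 0.1) and Hamp, the iron hormone hepcidin, -0.1 (SE 0.18).

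Sex-biased and growth hormone genes went opposite ways in the stages. Female-biased genes had a median of 0.34 in mature (20 of 26 positive) and -0.15 in immature mice (8 of 26), and 0.13 pooled. Male-biased genes had -0.12 (6 of 16 positive) and 0.28 (15 of 16), and 0.11 pooled. With limma-voom and sample quality weights the pooled medians were 0 and -0.11, and with single libraries left out the male-biased one ran from -0.06, without Mat.LERKO 4, to 0.18. The growth hormone and IGF axis had 0.15 in mature and -0.11 in immature mice, and 0.01 pooled (-0.04 to 0.03 with single libraries left out). Cyp2a4, a steroid hydroxylase gene of female-biased level, had 1080 ± 217 and 1010 ± 280 CPM (SD, n = 8 each), and Igf1, the growth factor that liver secretes, 675 ± 59.1 and 680 ± 96.9 CPM (SD, n = 8 each). For Igf1 the 95% interval was -0.19 to 0.21. Cyp3a41b, the 1 female-biased gene with an unadjusted p below 0.05, was highest in Mat.LERKO 4, at 14.1 CPM against at most 2.24 CPM in any other library.

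Genes of mitochondrial respiration had the narrowest intervals of the lists. All 50 tested nuclear-encoded respiratory chain subunits had a 95% interval within 1.5-fold, and their fold changes ran from -0.1 to 0.11. The stages had small medians of opposite sign, -0.09 in mature (1 of 50 positive) and 0.03 in immature mice (40 of 50), and -0.03 pooled (10 of 50). The number positive ran from 3 to 27 with single libraries left out, the highest without Mat.LERKO 4, and was 32 without the 3 libraries richest in muscle transcripts. Atp5b, the catalytic beta subunit of ATP synthase, stood at 1110 ± 37.2 CPM in controls and 1070 ± 88.9 in LERKO (SD, n = 8 each; 95% interval -0.19 to 0.1). Of 25 genes of mitochondrial biogenesis and dynamics, 24 had an interval within 1.5-fold and the median was -0.04. Gabpa, a factor that activates nuclear genes of the respiratory chain, was the 1 member with an unadjusted p below 0.05 (40.8 ± 3.09 and 36.4 ± 3.05 CPM, SD, n = 8 each; -0.16, SE 0.06). Genes encoded in the mitochondrial DNA are listed at 0 in every library and were not analysed here.

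Fatty acid oxidation and ketogenesis genes had small negative values, 33 of 34 with a median of -0.13, and 0 had an unadjusted p below 0.05 with edgeR or DESeq2. The medians were -0.02 in mature and -0.26 in immature mice, and -0.06 over both without Mat.LERKO 4 and -0.07 without Imm.LERKO 4. With single libraries left out the pooled median ran from -0.19, without Mat.LERKO 2, to -0.05, without Imm.Con 4 (30 of 34 negative). It was -0.03 with limma-voom and sample quality weights, with 27 of 34 negative. Ppara, the fasting receptor that drives this programme, averaged 180 ± 19.4 and 153 ± 36 CPM (SD, n = 8 each; -0.24, SE 0.13). Fabp1, the fatty acid binding protein of liver, averaged 4820 ± 970 and 4330 ± 1590 CPM (SD, n = 8 each; -0.16, SE 0.16).

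Lipid synthesis genes pointed opposite ways in the stages. Lipogenic genes had a median of 0.19 (20 of 25 positive), made of -0.31 in mature and 0.54 in immature mice, and cholesterol synthesis genes one of 0.12 (20 of 25 positive), made of -0.12 and 0.37. No member of either list had an unadjusted p below 0.05. Without Imm.LERKO 4 the pooled medians were -0.15 for lipogenesis, with 21 of 25 negative, and -0.08 for cholesterol synthesis. They also depended on control libraries. Without Imm.Con 1 they were 0.09 and 0.01, and without Imm.Con 4 they were 0.09 and 0.02. Leaving out Imm.Con 3 gave 0.29 and 0.28. Scd1, the stearoyl-CoA desaturase, reached 25700 CPM in Imm.LERKO 4 against 1890 to 4550 CPM in the other immature LERKO livers.

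In glucose metabolism, Pck1, the rate-limiting enzyme of gluconeogenesis, was lower in LERKO on average. It stood at 3790 ± 748 CPM in controls and 2860 ± 683 in LERKO (SD, n = 8 each), a log2 fold change of -0.42 (SE 0.14, unadjusted p = 0.00704, adjusted p = 0.999, edgeR), with -0.55 in mature and -0.3 in immature mice. The 22 genes of gluconeogenesis and glycolysis together had a median of 0.09 (-0.07 mature, 0.16 immature), with 1 higher and 2 lower at an unadjusted p below 0.05. Bile acid genes had a median of 0 (10 of 21 positive), with Fgfr4, the hepatic FGF receptor of bile acid feedback, at 31.3 ± 1.91 and 36.4 ± 5.82 CPM (SD, n = 8 each; 0.21, SE 0.08). Xenobiotic genes had one of 0.02 (14 of 27 positive), and -0.12 to 0.1 with single libraries left out.

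Acute phase genes had 7 of 27 members at an unadjusted p below 0.05, all higher, with a pooled median of 0.38. The median was 0.88 in mature and -0.1 in immature mice, and without Mat.LERKO 4 the pooled median was 0.04 with 3 members higher and 1 lower. Saa1 stood at 94.4, 25.5, 33.1 and 19000 CPM in mature LERKO livers and Orm1, alpha-1-acid glycoprotein, at 505, 306, 381 and 6820 CPM, the last value being that library. Steap4, a metalloreductase, stood at 96.8, 97.1, 103 and 133 CPM in mature controls and at 142, 136, 199 and 252 in mature LERKO livers, without overlap. In immature mice it stood at 121, 93, 99.4 and 114 CPM in controls and 141, 90.5, 111 and 112 in LERKO, with overlap (0.42 pooled, SE 0.15). The count of 7 fell to 2 without Mat.Con 1 and to 1 without Mat.Con 2, 3 or 4. It was 4 without Imm.Con 1, 2 with DESeq2 or the robust fit, 1 with limma-voom, and 0 without the 3 libraries richest in muscle transcripts.

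The median of endoplasmic reticulum stress genes was 0.15 (0.4 mature, -0.12 immature), while the 2 members with an unadjusted p below 0.05, Trib3 and Herpud1, were lower. Herpud1, a component of protein degradation at that membrane, averaged 787 ± 160 and 625 ± 143 CPM (SD, n = 8 each; -0.33, SE 0.14). Interferon-stimulated genes had a median of 0.02 (-0.05 to 0.08 with single libraries left out) with Stat2, the signal transducer, at 0.3 (SE 0.1). Clock genes had a median of -0.13, with 2 higher and 4 lower at an unadjusted p below 0.05. The activators Clock (0.41, SE 0.16) and Arntl (1.42, SE 0.57) were among the higher and the repressor Per1 (-0.3, SE 0.12) and the output factor Tef (-0.17, SE 0.08) among the lower. Mat.LERKO 3 was extreme for these, with 16.3 CPM of Arntl against at most 3.4 CPM elsewhere and the lowest Per1 and Tef of all libraries. Without it the median was -0.06, with 1 higher and 1 lower. The sources used here do not give the time of day at which livers were taken.

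Cell cycle genes and markers of non-parenchymal cells followed the pattern of opposite stages. Cell cycle genes had medians of -0.53 in mature and 0.73 in immature mice (0.11 pooled). Of these, 14 of 26 had an unadjusted p below 0.05 for the difference (edgeR), 0 adjusted, against 6.35% of all tested genes. Such counts were not particular to this list. They were 15 of 27 for acute phase, 9 of 25 for endoplasmic reticulum stress, 14 of 24 for stellate, 4 of 25 for endothelial and 16 of 19 for skeletal muscle genes. Stellate and matrix markers had medians of -0.6 and 0.36 (-0.16 pooled, 20 of 24 negative). Endothelial markers had medians of -0.48 and 0.31 (-0.07 pooled, 22 of 25 negative). Without Mat.LERKO 4 the pooled values were 0 for stellate and 0.08 for endothelial markers, the latter with 22 of 25 positive, and without Imm.LERKO 4 they were -0.29 and -0.23, with -0.02 for cell cycle genes. Without Mat.Con 1 the cell cycle median was 0.3, with 22 of 26 positive. Bgn, a matrix proteoglycan, averaged 116 ± 26.6 and 94 ± 29.5 CPM and Eng, an endothelial co-receptor, 53.7 ± 13.6 and 48.7 ± 17.7 CPM (SD, n = 8 each).

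The other marker lists gave pooled medians of -0.04 for hepatocytes (6 of 13 positive), -0.04 for Kupffer and myeloid cells (7 of 21), -0.13 for lymphocytes (2 of 14), 0.18 for cholangiocytes (11 of 12) and -0.3 for pancreas and adipose tissue (1 of 6). Cholangiocyte markers had -0.18 in mature (5 of 12 positive) and 0.5 in immature mice (12 of 12). With single libraries left out the pancreas and adipose median ran from -0.66 without Imm.LERKO 2 to 0.19 without Imm.Con 4, and the Kupffer and myeloid one from -0.12 to 0.02. Prom1, a cholangiocyte marker, had the smallest p of its list (1.03, SE 0.34), with 8.77 CPM in Mat.LERKO 4, and Ccr2, a monocyte chemokine receptor, had 0.55 (SE 0.2). Summed cholangiocyte markers ran from 50.8 to 80.6 CPM in controls and from 51.3 to 136 CPM in LERKO, and summed myeloid markers from 316 to 676 and from 409 to 807 CPM. All 19 tested skeletal muscle markers had negative pooled fold changes (median -1.47), from -8.09 in mature and 6.5 in immature mice, and 1 had an unadjusted p below 0.05. The pooled value depended on the fit, with a median of -0.21 and 8 of 19 positive with DESeq2, -0.21 and 4 positive with 1 coefficient per group, and -7.39 without Imm.LERKO 4. Values without the 3 libraries richest in muscle transcripts are given above for respiratory chain and acute phase genes. Leaving out a library removes more than its muscle transcripts, so the part of these transcripts in other lists was not tested.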

How the data were processed

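Liver mRNA of 16 mice was sequenced as stranded, paired-end libraries, per the labels' protocols. The authors deposited 1 table of read counts for 35502 genes; mm10, STAR, R 4.05 and limma are named per the submitters' processing notes, and the sources used here do not give the counting program or its strand setting. In 5 columns the deposited values are estimated counts, since 10 values, of 2 predicted genes, carry fractions and were rounded here. Members and lists were chosen with earlier results of these data known.

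Genes passing filterByExpr of edgeR (counts of at least 10, totals of at least 15) were scaled by TMM and tested with edgeR 4.0.16 (R 4.3.3) on stage plus genotype; the within-stage effects and their difference come from a fit with 1 coefficient per group. Standard errors were derived from the fold change and its F statistic. The 16 libraries held 15853 to 16809 genes with a count, and no gene list was tested as a set. The text names Esr1, then in each direction the 10 genes of smallest p with a gene symbol and a mean log2 CPM not below 0, and from each list the 2 members of highest level and the one of smallest p; others are said to have been chosen after their values were seen. Those are Saa1, Orm1, Arntl, Per1, Sult3a1, Xist, the Y-linked genes, Acta1 and Ckm among the stage differences, and the further X-linked genes below. Positions are from GENCODE vM21 (GRCm38; 35465 identifiers matched), promoters from RefSeq (GRCm38.p6). Alternatives were DESeq2 1.42.0, limma-voom (limma 3.58.1) with and without quality weights, a robust fit, other scalings, filters and thresholds, no stage term, and each library left out. The scripts were tested on simulated data. The values of 1 gene are not reported here. The labels name individual mice, so p-values measure the spread between mice.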

Additional observations from a re-analysis of the deposited data

Results flagged for a closer look

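Within each group of 4 libraries, 71 quantities named in the text were searched for a single library far from the other 3 (its gap to them above Dixon's 95% critical value), 284 groups in all. Of these, 27 met it. Chance flags about 1 group in 20 where quantities are picked beforehand. Some of these were chosen after their values were seen, and some overlap, such as muscle genes and the muscle sum. The count can therefore not be set against that rate.

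The library Mat.LERKO 4 was far from its group in the most quantities. It held 19000 CPM of Saa1 (others 25.5 to 94.4), 6820 CPM of Orm1 (306 to 505), 8.94 CPM of Sult3a2 (0.659 to 1.32) and 14.1 CPM of Cyp3a41b (0.0507 to 2.24). It held 893 CPM of Atp5b (1080 to 1110), and its summed endothelial markers were 212 CPM (576 to 605), its cholangiocyte markers 82.2 CPM (51.3 to 56.6) and its skeletal muscle markers 31.9 CPM (20.4 to 22.3).

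The library Imm.LERKO 4 held 25700 CPM of Scd1 (others 1890 to 4550) and 239 CPM of summed skeletal muscle markers (16 to 25). The muscle genes Acta1 (46.2 CPM) and Myh4 (0.784 CPM) were listed at 0 in the other 3 of its group. Imm.LERKO 3 held 57.4 CPM of Nfkbia (46.4 to 47.1), 1180 CPM of Hamp (682 to 731) and 1.67 CPM of Pidd1 (1.97 to 2.01). Among the other mature LERKO libraries, Arntl was 16.3 CPM in Mat.LERKO 3 (0.914 to 3.29), Scd1 1690 CPM in Mat.LERKO 2 (5800 to 6340) and Pck1 2960 CPM in Mat.LERKO 1 (2220 to 2300).

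In controls, Mat.Con 2 held 0.558 CPM of Sult3a2 (0.21 to 0.268) and 7.02 CPM of Col5a3 (4.47 to 4.54). Mat.Con 1 held 33.7 CPM of Saa1 (24.6 to 25.6) and 132 CPM of Myh4 (0 to 4.93), and Mat.Con 4 held 133 CPM of Steap4 (96.8 to 103). Ccnj was 1.6 CPM in Imm.Con 2 (1.97 to 2.04), Cyp3a41b 0.552 CPM in Imm.Con 3 (0.0518 to 0.103), Ccnd1, cyclin D1, 157 CPM in Imm.Con 1 (110 to 114) and Arntl 0.363 CPM in Imm.Con 1 (1.7 to 1.82).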

How the results depend on the processing

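Esr1 passed under all 28 alternatives, with log2 fold changes from -2.5 to -2.34, and 1 gene was called in each fit except that of DESeq2, which called 3 (Esr1, Arrdc2 and Sult3a2). With each library left out in turn the count was 1 to 1, and the count for the difference between stages was 0 to 0, against 26 with DESeq2; the cause was not tested. The 19 other named genes kept their direction in 531 values, with 2 past the threshold, both in DESeq2; Sult3a2 was filtered out at 1 CPM in 8 libraries. Genes at an unadjusted p below 0.05 numbered 482, and 765 with no filter, 450 (306 higher, 144 lower) at 1 CPM in 8 libraries and 524 (346 higher, 178 lower) without Mat.LERKO 4. More were lower than higher with limma-voom (205 higher, 266 lower), with quality weights (241, 281), without Imm.LERKO 4 (307, 335) and without the 3 muscle-rich libraries and Mat.LERKO 4 (227, 258). Ranges of list medians with single libraries left out are given beside several lists that changed sign; the muscle median was -7.39 without Imm.LERKO 4. Leaving out the 3 muscle-rich libraries, also with Mat.LERKO 4, was added after seeing the data. No paired analysis was possible because the labels give no replicate numbers. Counts limit rare genes such as Sult3a2.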

Other observations

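Because Klf15, Nfkbia and Pck1 stood among the lower genes, a list of 20 genes known to respond to glucocorticoids was written after the values were seen. Of these, 17 had negative pooled fold changes, with a median of -0.31. At an unadjusted p below 0.05, 8 were lower, against 1.66% of all tested genes, and none passed over all genes (adjusted p = 0.999, edgeR). The medians were -0.42 in mature and -0.24 in immature mice. Without the 3 genes that prompted the list, 14 of 17 were negative, with a median of -0.3 and 5 at an unadjusted p below 0.05. These 17 were also picked with their values known, so this is not a separate check. Leaving out each library in turn gave medians from -0.36 to -0.26 for the 20, with 3 at an unadjusted p below 0.05 without Mat.LERKO 3 and 4 without Mat.Con 3 or Imm.Con 4. Tat, tyrosine aminotransferase, averaged 1750 ± 554 CPM in controls and 1260 ± 469 in LERKO (SD, n = 8 each), with fold changes of -1.01 in mature and -0.03 in immature mice, and Per1 averaged 75.2 ± 7.73 and 61.2 ± 13.3 CPM. The list was chosen on these data, so its counts are a description.

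Imm.LERKO 2, with 9 counts of Xist, was also below the 15 other libraries for 3 of 5 further X-linked genes looked at. These were Kdm6a (10.9 CPM, others 15.2 to 21.2), Kdm5c (48.3 CPM, others 58.4 to 85.9) and Eif2s3x (22.8 CPM, others 31 to 46.3). Ddx3x (172 CPM, others 156 to 263) and Utp14a (13.9 CPM, others 9.38 to 15.2) lay within the range. Without this library Esr1 was still the 1 gene called.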
